A study of Rattus norvegicus with 16 samples.

Results

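The genes described here are the vascular endothelial growth factor (VEGF) ligands Vegfa, Vegfb and Vegfc and the VEGF receptors Kdr, Flt1 and Nrp1, as measured in rat hippocampus after chronic mild stress (CMS, a long run of small, changing stressors). Members were found by matching the RefSeq identifier of each probe's target to the gene symbol, and a gene with several probes stood by 1 of them, chosen by its mean level over all arrays (the brightest). Of 6 genes named, 5 had a probe, with 9 probes between them, out of 13903 gene symbols and 24684 probes on the array. All 5 of those genes, by their brightest probe, passed the filter for testing (well above background on at least 4 of 16 arrays), as did 17880 probes in all. Kdr is not analysed here, since no probe target matched it. Brightness served for that choice alone and is given as a description, while differences between groups had no part in it.

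The animals were male Sprague-Dawley rats, and no genotype differed between groups. There were 4 arrays for each of 4 groups: depression-susceptible, anxiety-susceptible and insusceptible rats, all exposed to CMS for 8 weeks, and control rats without CMS. The measure by which stressed rats were sorted, and whether each array holds the RNA of 1 rat, are not given in the sources used here. Arrays were single-colour, and each value is the log2 background-subtracted signal of a probe minus that of the 75th percentile of its array, so 0 is the 75th percentile and 1 unit is a doubling. Levels are compared for 1 probe between samples.

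VEGF ligands are secreted proteins that bind receptor tyrosine kinases on blood vessels. Vegfa acts through Flt1 and Kdr to drive vessel growth and permeability, Vegfb binds Flt1, and Vegfc acts mainly through Flt4 on lymphatic vessels. Nrp1, or neuropilin, is a co-receptor that also binds semaphorins, the guidance cues of growing axons. In the hippocampus Vegfa is made by astrocytes and neurons as well as by cells of the vessel wall, and it is known there as a trophic factor for neurons and neural progenitors.

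The upstream sequences of the 3 genes that passed the test against control are shown so that a reader can see where their transcription is annotated to begin. They are the bases just before the annotated start, read from RefSeq in build GRCr8 and written 5′ to 3′ along the gene's strand. The Vegfa stretch is chr9:22452604-22452853 (plus strand, 250 bases), the Vegfb stretch is chr1:213607255-213607402 (minus strand, 148 bases) and the Nrp1 stretch is chr19:73256307-73256556 (plus strand, 250 bases). Capitals mark matches, on either strand, to the GC box GGGCGG, a site bound by Sp-family factors. The hypoxia response core ACGTG was searched on both strands too.
Vegfa: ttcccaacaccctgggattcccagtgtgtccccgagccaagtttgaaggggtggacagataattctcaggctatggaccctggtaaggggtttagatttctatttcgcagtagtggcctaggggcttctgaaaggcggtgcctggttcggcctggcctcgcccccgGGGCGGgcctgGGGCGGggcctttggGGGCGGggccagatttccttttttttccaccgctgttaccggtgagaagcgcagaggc
Vegfb: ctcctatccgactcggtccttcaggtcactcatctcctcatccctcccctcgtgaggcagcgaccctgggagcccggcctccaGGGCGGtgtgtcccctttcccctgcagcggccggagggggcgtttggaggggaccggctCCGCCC
Nrp1: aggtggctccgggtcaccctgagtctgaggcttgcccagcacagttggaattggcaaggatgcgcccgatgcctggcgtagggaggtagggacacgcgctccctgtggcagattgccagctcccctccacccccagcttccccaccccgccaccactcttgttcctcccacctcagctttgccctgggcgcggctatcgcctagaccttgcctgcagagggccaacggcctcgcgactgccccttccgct
The Vegfa stretch holds 3 GC boxes and the Vegfb stretch 2, and the Nrp1 stretch holds 0. Of all annotated promoters, 30.5% have a GC box in the same 250 bases and 16.2% in the first 148 of those bases. Those 148 bases do not reach each promoter's start, unlike the Vegfb stretch, so they are not a like background for it. ACGTG had 0 matches in each of the 3 stretches, against 16.6% of all promoters with a match in 250 bases and 9.47% in the first 148. No matches overlapped, and a match is a description of the letters only.

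Shared scan times and array positions place the arrays on 4 slides. On day 1 came slides 1 and 2, with 2 depression-susceptible arrays (positions 3 and 4) and 2 control arrays (positions 1 and 2) on each. Slide 3 held all anxiety-susceptible and slide 4 all insusceptible arrays, and both were scanned on day 2. Only depression-susceptible and control can therefore be compared within slides. Elsewhere a group difference cannot be told apart from a slide difference. Arrays of 1 group on 1 slide had a variance 0.370 to 0.797 times that predicted from repeated spots, so they were averaged, which leaves 6 samples: 2 depression-susceptible, 1 anxiety-susceptible, 1 insusceptible and 2 control. The anxiety-susceptible and insusceptible samples have no spread of their own, and standard errors (SE) come from the differences between slides 1 and 2. Unless another fit is named, adjusted p-values are limma's on these 6 samples, with Benjamini-Hochberg adjustment over all probes tested. They measure the spread between these samples, which may be technical. The words rose and fell are kept for genes whose adjusted p in this fit was under 0.05, and calls of other fits are given as higher or lower. The 75th percentile of the signal was 2869 to 3348 on depression-susceptible, 1083 to 1259 on anxiety-susceptible, 1228 to 1256 on insusceptible and 2863 to 3074 on control arrays. The 0 spots saturated and the 62.1% to 74.0% of probes well above background per array describe the signal range. Of the neuron markers, 14 of the 14 with a probe were well above background on enough arrays to be tested, as were 10 of 10 astrocyte markers.

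Vegfa rose in all 3 stressed groups. Its brightest probe stood at 2.64, 2.69, 2.73 and 2.83 on the depression-susceptible arrays, 2.55, 2.60, 2.59 and 2.55 on the anxiety-susceptible arrays, 2.67, 2.56, 2.55 and 2.54 on the insusceptible arrays and 2.06, 2.01, 1.85 and 1.87 on the control arrays. Every stressed array lay above every control array, the nearest being at 2.54 and 2.06. Against control Vegfa was 0.77 higher in depression-susceptible hippocampus (SE 0.10, 95% interval 0.48 to 1.06, 1.71-fold, adjusted p = 0.0281). This difference was 0.74 on slide 1 and 0.80 on slide 2. It was 0.62 higher in anxiety-susceptible (SE 0.13, 1.54-fold, adjusted p = 0.0357) and 0.63 higher in insusceptible hippocampus (SE 0.13, 1.55-fold, adjusted p = 0.0358).

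**Figure D1:**
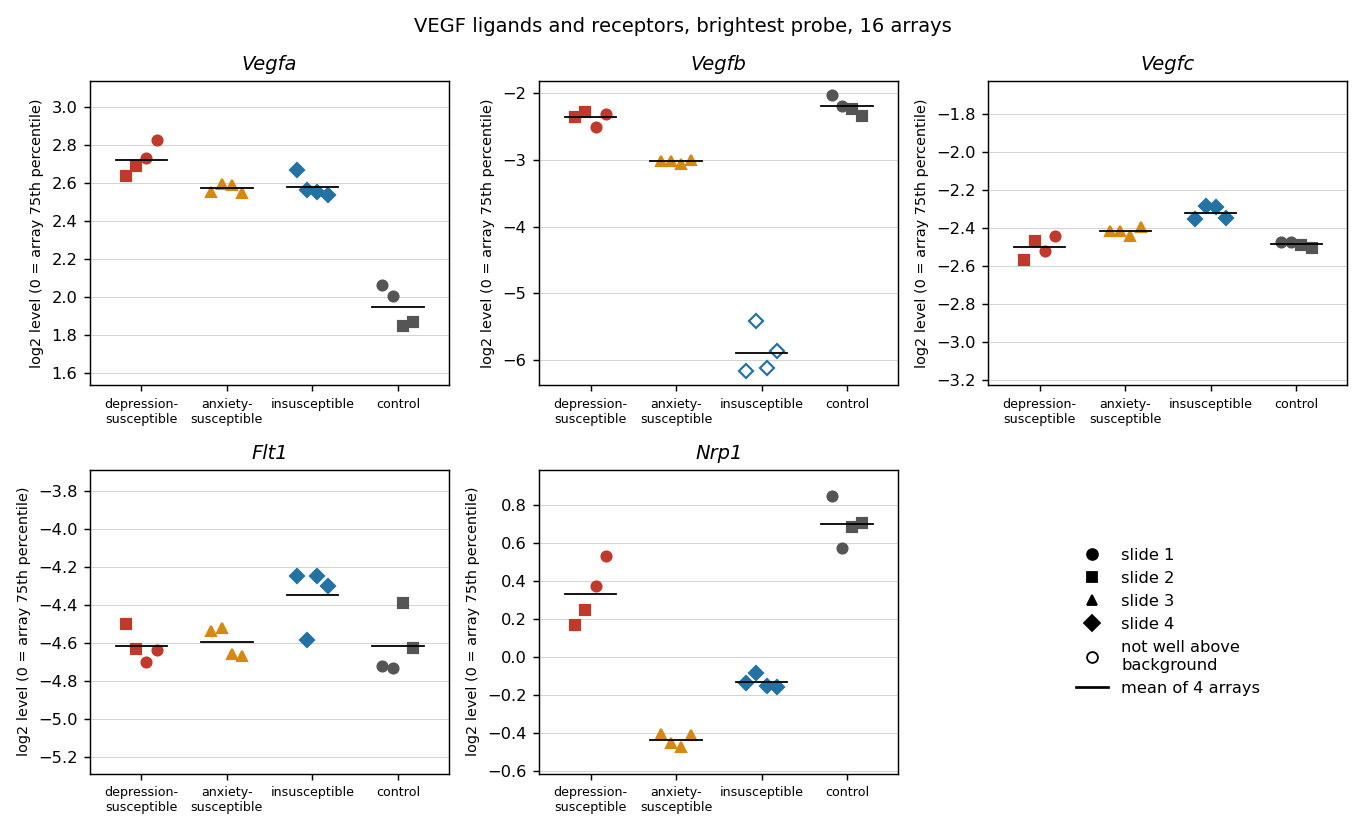
Log2 level (vertical axis, 0 is the array's 75th percentile) of the brightest probe of each gene on 16 arrays, by group; marker shapes are slides, open markers were not well above background, and lines are means of 4 arrays. Vegfa lies between 2.54 and 2.83 on stressed arrays and between 1.85 and 2.06 on control arrays, while Vegfb on insusceptible arrays lies at -5.42 or lower.

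The stressed groups could not be ordered by Vegfa. Depression-susceptible minus anxiety-susceptible was 0.15 (95% interval -0.21 to 0.50, adjusted p = 0.456), depression-susceptible minus insusceptible was 0.14 (-0.21 to 0.50, adjusted p = 0.489) and anxiety-susceptible minus insusceptible was -0.01 (-0.42 to 0.40, adjusted p = 0.993). The first 2 turn to about 0 or below under other scalings. The intervals allow differences of up to 0.50.

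All 5 Vegfa probes, whose targets are 5 RefSeq transcripts of the gene, rose in the 3 stressed groups. In depression-susceptible against control their differences ran from 0.69 to 0.79, in anxiety-susceptible from 0.45 to 0.64 and in insusceptible from 0.59 to 0.66. The probes share 1 gene and much of its sequence, so they are repeated measurements of the same RNA rather than replicates.

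**Figure D2:**
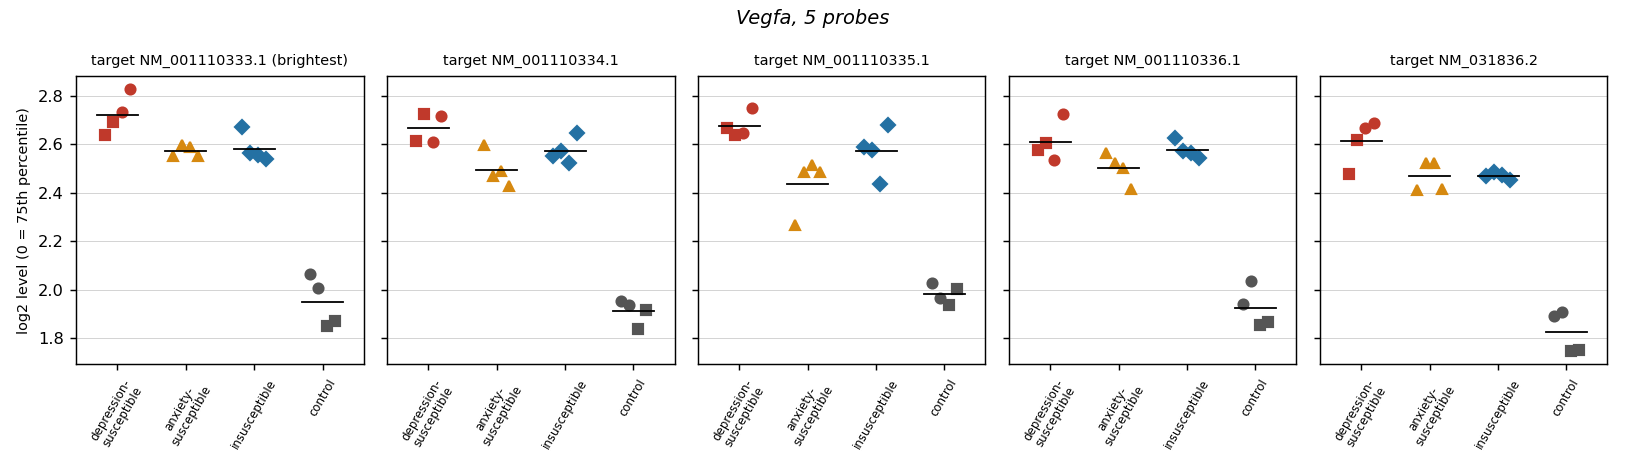
Log2 level (vertical axis, 0 is the array's 75th percentile) of each of the 5 Vegfa probes on 16 arrays by group, titled by the probe's RefSeq target; marker shapes are slides as in the plot of levels by array, and lines are means of 4 arrays. On all 5 probes the stressed arrays lie above the control arrays.

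Scaling sets part of these values. The processed signal of the brightest Vegfa probe before scaling averaged 20319 on depression-susceptible, 7010 on anxiety-susceptible, 7415 on insusceptible and 11479 on control arrays. Depression-susceptible arrays were thus above control without any scaling, and the other stressed groups were above it only relative to their dimmer arrays. Choroid plexus markers were lower in the same 3 comparisons, for 18, 15 and 18 of 21, and their part in the Vegfa result was not tested. The Vegfa call ended in all 3 comparisons with control when any 1 of the 4 slide samples of depression-susceptible or control was left out (adjusted p 0.0667 to 0.158), which leaves 1 residual degree of freedom. Without the filter on dim probes adjusted p was 0.0658 for depression-susceptible and 0.0715 for anxiety-susceptible hippocampus.

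Vegfb, a ligand known for its part in endothelial fatty acid uptake in other tissues and for survival of vessels and neurons, differed most in insusceptible hippocampus. Its level was -2.35, -2.27, -2.50 and -2.31 on depression-susceptible arrays, -3.02, -3.01, -3.06 and -3.0 on anxiety-susceptible arrays, -6.17, -5.42, -6.12 and -5.87 on insusceptible arrays and -2.02, -2.19, -2.23 and -2.34 on control arrays. The insusceptible and the anxiety-susceptible arrays each lay below all control arrays, and depression-susceptible and control arrays overlapped. The probe was well above background on 0 of 4 insusceptible arrays and on all 12 others.

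Vegfb fell in insusceptible hippocampus by 3.70 on the log2 scale (SE 0.13, adjusted p = 0.00409), which as a bound for the processed signal is at least 12.1-fold lower than control. Bounds here set each dim array's signal no lower than its dimmest signal well above background. They hold for this processing only and are not minimum differences under another background correction. As such bounds, Vegfb was also at least 10.8-fold higher in depression-susceptible than in insusceptible hippocampus (log2 difference of 3.53, adjusted p = 0.0246). It was at least 6.84-fold higher in anxiety-susceptible than in insusceptible hippocampus (2.87, adjusted p = 0.0462). In anxiety-susceptible against control Vegfb fell by 0.82 (SE 0.13, 1.77-fold, adjusted p = 0.022). In depression-susceptible against control the difference was -0.16 (95% interval -0.45 to 0.12, adjusted p = 0.355), with -0.30 on slide 1 and -0.03 on slide 2. Depression-susceptible minus anxiety-susceptible was 0.66 (SE 0.13, adjusted p = 0.0675), and quantile normalization gave an adjusted p of 0.0432.

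Under a background correction fitted on each array's negative control spots, the insusceptible difference shrank to -2.06 (adjusted p = 0.00263), short of the bound above. Anxiety-susceptible minus insusceptible was 1.51 (adjusted p = 0.089), also short of its bound. Without the filter that last comparison had an adjusted p of 0.139, and it lost its call in 11 of 20 repeats that left out 1 array or 1 slide sample (0.0502 without insusceptible replicate 1, up to 0.177 without a depression-susceptible slide sample). The call of depression-susceptible against insusceptible ended when any 1 of the 4 slide samples of depression-susceptible or control was left out (adjusted p 0.0907 to 0.235). The call of anxiety-susceptible against control ended without the filter (adjusted p = 0.0506) and without the slide 1 controls or either depression-susceptible slide sample (adjusted p 0.0567 to 0.0640).

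The spot itself was inspected because 1 dim spot could set this value. Its median intensity, unscaled, was 692.5 to 760 on depression-susceptible, 199 to 217.5 on anxiety-susceptible, 91 to 110 on insusceptible and 716 to 823.5 on control arrays. The local background beside it was 24.5 to 29 on depression-susceptible, 26 to 37 on anxiety-susceptible, 45 to 53.5 on insusceptible and 29 to 34 on control arrays. Over whole arrays the median local background was likewise higher on the insusceptible arrays, 46 to 50 against 29 to 33 on the others. The processed signal of Vegfb on insusceptible arrays was 17.1 to 28.8, below the spot median minus local background. On the other arrays the processed signal lay below that value too. It was 556.7 to 655.8 on depression-susceptible, 135.9 to 156.6 on anxiety-susceptible and 605.8 to 705.6 on control arrays. In every group the processing therefore took off more than the local background. The spot carried no outlier flag, and the 146 probes printed around it had a median insusceptible minus control difference of 0.08. Probes well above background on all 12 other arrays and on 0 insusceptible ones numbered 54 (0.219% of 24684). Vegfb is represented by 1 probe, so no second probe could be set beside it, and the part of background in the result was not tested.

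**Figure D3:**
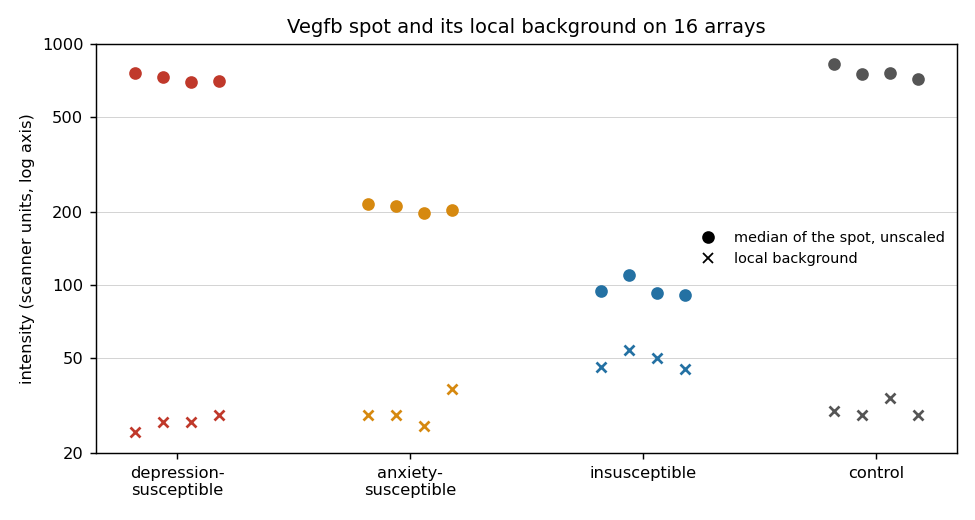
Median intensity of the Vegfb spot (circles) and its local background (crosses) in scanner units on a log axis, before any scaling, on 16 arrays by group. Insusceptible spots read 91 to 110 over a local background of 45 to 53.5, and control spots 716 to 823.5 over 29 to 34.

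Vegfc, a lymphatic growth factor that also stimulates neural progenitors, did not pass the test in any comparison. It stood at -2.57, -2.47, -2.52 and -2.44 on depression-susceptible, -2.42, -2.42, -2.44 and -2.40 on anxiety-susceptible, -2.36, -2.29, -2.29 and -2.35 on insusceptible and -2.48, -2.48, -2.49 and -2.51 on control arrays. The insusceptible and the anxiety-susceptible arrays lay just above the controls without overlap, and depression-susceptible arrays straddled them. Differences from control were -0.01 (95% interval -0.22 to 0.19, adjusted p = 0.925) in depression-susceptible, 0.07 (-0.18 to 0.32, adjusted p = 0.579) in anxiety-susceptible and 0.17 (-0.08 to 0.42, adjusted p = 0.221) in insusceptible hippocampus. The last reached 0.38 (adjusted p = 0.0473) when arrays were scaled on probes detected everywhere and -0.04 under quantile normalization.

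The placental growth factor Pgf and Vegfd are the ligands of the family outside the 6 genes. Pgf, a ligand of Flt1, stood between -3.19 and -3.12 on depression-susceptible, -2.96 and -2.84 on anxiety-susceptible, -3.13 and -3.03 on insusceptible and -2.83 and -2.76 on control arrays. All stressed arrays lay below all control arrays, yet the differences of -0.35 (SE 0.07, adjusted p = 0.0691), -0.11 (SE 0.09, adjusted p = 0.406) and -0.27 (SE 0.09, adjusted p = 0.094) did not pass. The depression-susceptible difference was -0.37 on slide 1 and -0.34 on slide 2 and passed with slide as a block (adjusted p = 0.0209) and under quantile normalization (-0.45, adjusted p = 0.0314). In insusceptible hippocampus quantile normalization also gave a call (-0.51, adjusted p = 0.0217), and in anxiety-susceptible hippocampus the sign turned under scaling on detected probes (0.12). Vegfd was well above background on 0 of 16 arrays and was not tested.

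Nrp1, the co-receptor, fell in 2 stressed groups. Its level was 0.17, 0.24, 0.37 and 0.53 on depression-susceptible arrays, -0.41, -0.46, -0.48 and -0.41 on anxiety-susceptible arrays, -0.14, -0.09, -0.15 and -0.16 on insusceptible arrays and 0.84, 0.57, 0.68 and 0.71 on control arrays. All stressed arrays lay below all controls, with depression-susceptible nearest to them and anxiety-susceptible farthest. Nrp1 fell by 1.14 in anxiety-susceptible (SE 0.14, 95% interval -1.52 to -0.75, 2.20-fold, adjusted p = 0.0159) and by 0.84 in insusceptible hippocampus (SE 0.14, -1.22 to -0.45, 1.78-fold, adjusted p = 0.0257). In depression-susceptible hippocampus the difference of -0.37 (SE 0.11, -0.69 to -0.06) had an adjusted p of 0.128. It was -0.26 on slide 1 and -0.49 on slide 2, and with slide as a block adjusted p was 0.0415.

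Among the stressed groups no Nrp1 difference passed. Depression-susceptible minus anxiety-susceptible was 0.77 (SE 0.14, adjusted p = 0.0658, or 0.0196 after the correction from negative control spots), depression-susceptible minus insusceptible was 0.46 (SE 0.14, adjusted p = 0.128) and anxiety-susceptible minus insusceptible was -0.30 (SE 0.16, adjusted p = 0.592). Without the slide 1 or the slide 2 controls, adjusted p for the 2 falls against control was 0.0501 to 0.0744.

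Flt1, the receptor shared by Vegfa, Vegfb and Pgf, which also circulates as a soluble decoy, did not pass in any comparison. Its level was -4.50, -4.63, -4.70 and -4.64 on depression-susceptible, -4.54, -4.52, -4.66 and -4.67 on anxiety-susceptible, -4.25, -4.59, -4.25 and -4.30 on insusceptible and -4.72, -4.73, -4.39 and -4.63 on control arrays, well above background on all 16. Each stressed group overlapped the controls. Differences from control were within 0.01 of 0 in depression-susceptible (95% interval -0.31 to 0.31, adjusted p = 0.999), 0.02 in anxiety-susceptible (-0.36 to 0.40, adjusted p = 0.921) and 0.27 in insusceptible hippocampus (-0.11 to 0.65, adjusted p = 0.196). The sign of the last 2 depends on the processing: they were 0.49 (adjusted p = 0.0181) and 0.59 (adjusted p = 0.0107) under the correction from negative control spots, and -0.27 and -0.12 under quantile normalization. Between stressed groups that correction put depression-susceptible Flt1 below insusceptible (adjusted p = 0.013) and anxiety-susceptible Flt1 (adjusted p = 0.0182).

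The receptors outside the 6 genes were dim. Flt4, the main Vegfc receptor, was well above background on 3 of 4 depression-susceptible, 0 of 4 anxiety-susceptible, 0 of 4 insusceptible and 3 of 4 control arrays. It passed the filter for testing only through depression-susceptible and control arrays. As a bound for the processed signal only, it was at least 1.32-fold lower in anxiety-susceptible than in control hippocampus (log2 difference -1.55, adjusted p = 0.0417). The sign turned to 0.66 under the correction from negative control spots, so a fall of Flt4 was not established. In insusceptible hippocampus the difference was -1.09 (adjusted p = 0.085). Nrp2, the other neuropilin, was well above background on 0 of 16 arrays and was not tested.

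**Figure D4:**
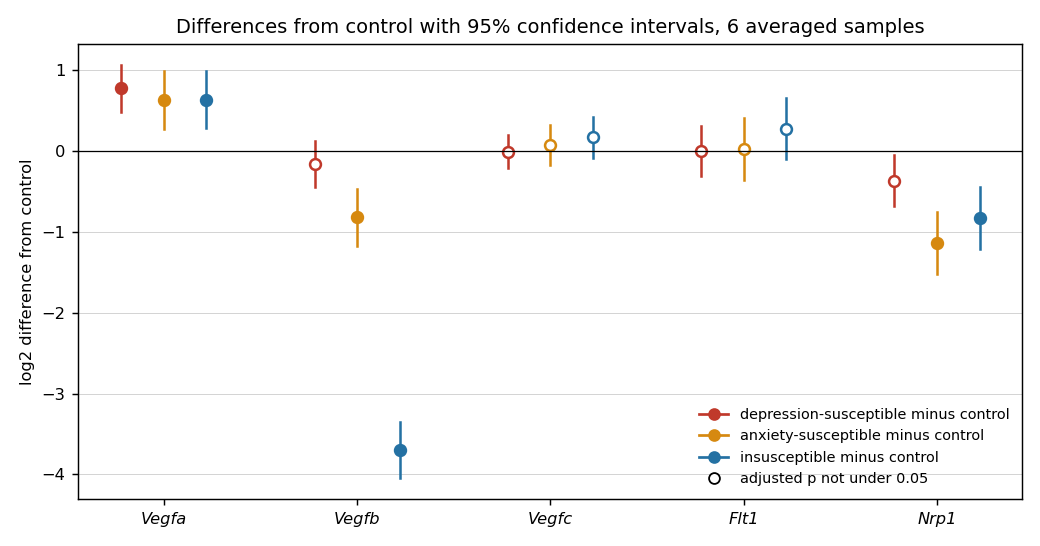
Log2 difference from control (vertical axis) of the 5 tested VEGF genes in each stressed group, with 95% confidence intervals from the fit on 6 samples; filled points have an adjusted p under 0.05. Vegfa is above 0 in all 3 groups (0.77, 0.62 and 0.63), Vegfb and Nrp1 are below 0 in anxiety-susceptible and insusceptible hippocampus.

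The counts of calls are set here beside those of the whole array. In depression-susceptible against control 1 of 5 rose and 0 fell, beside 6.73% of all probes that rose and 2.88% that fell. In anxiety-susceptible against control 1 rose and 2 fell, beside 12.4% and 18.5%. In insusceptible against control 1 rose and 2 fell, beside 14.9% and 15.2%. Arrays did not overlap with control arrays for 2 of 5 genes on the depression-susceptible side, beside 39.9% of all probes, for 4 of 5 on the anxiety-susceptible side, beside 68.6%, and for 4 of 5 on the insusceptible side, beside 69.3%. When arrays were scaled on probes detected on all of them, the median difference of all probes moved to 0.13 in anxiety-susceptible and 0.19 in insusceptible hippocampus, against -0.10 and -0.03, and the probes called turned to 3358 higher and 1565 lower in anxiety-susceptible and 4046 higher and 1441 lower in insusceptible hippocampus, against 2211 and 3301 and 2664 and 2709. The Vegfa, Vegfb and Nrp1 calls against control passed under that scaling with their signs. The 3 comparisons share the control samples, so they are not independent of each other.

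Between stressed groups calls were rare in the fit on 6 samples. In it Vegfb was the 1 of 5 genes called in depression-susceptible against insusceptible (0.0672% of all probes higher, 0.0056% lower) and in anxiety-susceptible against insusceptible (0.0727% higher, 0.0112% lower). With all 16 arrays as samples, 3 of the 5 were higher and 2 lower in the first comparison, beside 5985 and 5058 of 17851 probes. In the second 1 was higher and 3 lower, beside 2189 and 4358 of 17880. In depression-susceptible against anxiety-susceptible limma called 0 of 5, beside 0.151% of all probes higher and 0.118% lower. There 2 of the 5, Vegfb and Nrp1, had an unadjusted p under 0.05, and with all 16 arrays as samples 4 of 5 passed, beside 62.9% of all probes.

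The lists of related genes are counted beside all genes tested, of which 4.78% rose and 3.55% fell in depression-susceptible, 9.0% rose and 21.1% fell in anxiety-susceptible and 11.2% rose and 17.6% fell in insusceptible against control hippocampus. Of 26 genes that carry the signal inside the cell after a VEGF receptor is engaged, 0 rose and 1 fell in depression-susceptible, 1 rose and 8 fell in anxiety-susceptible and 1 rose and 8 fell in insusceptible hippocampus. Falls outnumbered rises among all genes too in the last 2 comparisons. Their medians of -0.11, -0.17 and -0.15 lay near those of all genes, -0.06, -0.16 and -0.10. Hspb1, a small heat shock protein that remodels actin downstream of p38 kinase, fell in anxiety-susceptible (log2 difference -2.02, SE 0.36, adjusted p = 0.028) and insusceptible hippocampus (-2.61, SE 0.36, adjusted p = 0.0193). The GTPase Cdc42 fell there too (-1.92 and -1.71, adjusted p = 0.0313 and 0.039).

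Genes that endothelial cells switch on under VEGF moved in both directions. Of 19 tested, 3 rose and 1 fell in depression-susceptible, 0 rose and 3 fell in anxiety-susceptible and 3 rose and 4 fell in insusceptible hippocampus. Esm1, a secreted proteoglycan and classic VEGF target of tip cells, fell in all 3 (-2.12, -2.11 and -3.12, adjusted p = 0.00257, 0.00633 and 0.00382) and was well above background on 1 of 4 insusceptible arrays. Its last 2 differences shrank to -0.72 and -0.98 under the correction from negative control spots. Angpt2, which loosens vessels for sprouting, rose by 0.68 in depression-susceptible (SE 0.08, adjusted p = 0.0205) and by 0.65 in insusceptible hippocampus (SE 0.10, adjusted p = 0.0222), the second not past the threshold under quantile normalization (adjusted p = 0.0515). Nr4a1, an immediate early nuclear receptor also induced by neuronal activity, fell by 0.71 in insusceptible hippocampus (SE 0.10, adjusted p = 0.0193).

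Of 5 angiopoietin and TIE genes, Angpt2 alone rose in depression-susceptible and in insusceptible hippocampus, and Angpt1, which stabilises vessels, fell by 0.69 in anxiety-susceptible hippocampus (SE 0.12, adjusted p = 0.0282), a difference that vanished under the correction from negative control spots (0.045). Among 6 semaphorin and plexin partners of neuropilin, limma called 0 in depression-susceptible (0 at an unadjusted p under 0.05, 2 called lower with all 16 arrays as samples), 2 fell in anxiety-susceptible and 1 fell in insusceptible hippocampus. Sema3c, a secreted guidance cue, fell in both (-0.90 and -0.74, SE 0.11 each, adjusted p = 0.0154 and 0.0212). After the correction from negative control spots 3 of the 6 were called higher and 1 lower in each of them. Of the 20 or 21 other angiogenic and antiangiogenic factors tested, 1 rose and 1 fell in depression-susceptible, 0 rose and 4 fell in anxiety-susceptible and 1 rose and 2 fell in insusceptible hippocampus. After the correction from negative control spots 6 were called higher and 6 lower in anxiety-susceptible hippocampus. Mmp2, a matrix protease, fell in all 3 (-1.37, -1.05 and -1.51, adjusted p = 0.00619, 0.0134 and 0.00858). Timp2, its tissue inhibitor, rose by 0.68 in depression-susceptible hippocampus (SE 0.10, adjusted p = 0.0325).

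Oxygen sensing was described because Vegfa is a target of the hypoxia-inducible factors. Of 10 factors and regulators 0 rose and 2 fell in depression-susceptible, 0 rose and 4 fell in anxiety-susceptible and 1 rose and 6 fell in insusceptible hippocampus, beside 3.55%, 21.1% and 17.6% of all genes that fell. After the correction from negative control spots 0, 2 and 2 were called higher and 0, 3 and 3 lower. Hif1a, the main oxygen-regulated subunit, fell by 0.83 in anxiety-susceptible hippocampus (SE 0.13, adjusted p = 0.0217). Cited2, an inhibitor of its coactivator, fell in all 3 (-0.43, -1.18 and -0.85, adjusted p = 0.0487, 0.00895 and 0.0139), the first not past the threshold under quantile normalization (adjusted p = 0.123). That first call was also lost in 11 repeats that left out 1 array or 1 slide sample, and kept in 9. Epas1, the endothelial relative of Hif1a, fell in depression-susceptible (-0.61, adjusted p = 0.0325) and anxiety-susceptible hippocampus (-1.19, adjusted p = 0.0106). In insusceptible hippocampus 0 of 4 arrays had it well above background. There it was at least 2.09-fold lower than in control, as a bound for the processed signal only (adjusted p = 0.0111). After the correction from negative control spots its differences were -0.41, -0.01 and -0.05 and did not pass. Of 30 hypoxia-induced genes 0 rose and 1 fell in depression-susceptible, 2 rose and 6 fell in anxiety-susceptible and 1 rose and 7 fell in insusceptible hippocampus, with medians of -0.22, -0.20 and -0.14. After the correction from negative control spots the last 2 groups had 6 higher and 5 lower, and 5 higher and 6 lower. Vegfa is not in that list. Ddit4, an inhibitor of growth signalling, fell by 0.82 in depression-susceptible hippocampus (SE 0.09, adjusted p = 0.0167), the glycolytic enzyme Tpi1 fell by 0.99 (SE 0.13, adjusted p = 0.0174) and the collagen hydroxylase P4ha1 rose by 0.75 in insusceptible hippocampus (SE 0.09, adjusted p = 0.0164). Ddit4 fell in anxiety-susceptible hippocampus too (-0.80 to -0.69 in repeats that left out 1 array or 1 slide sample).

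**Figure D5:**
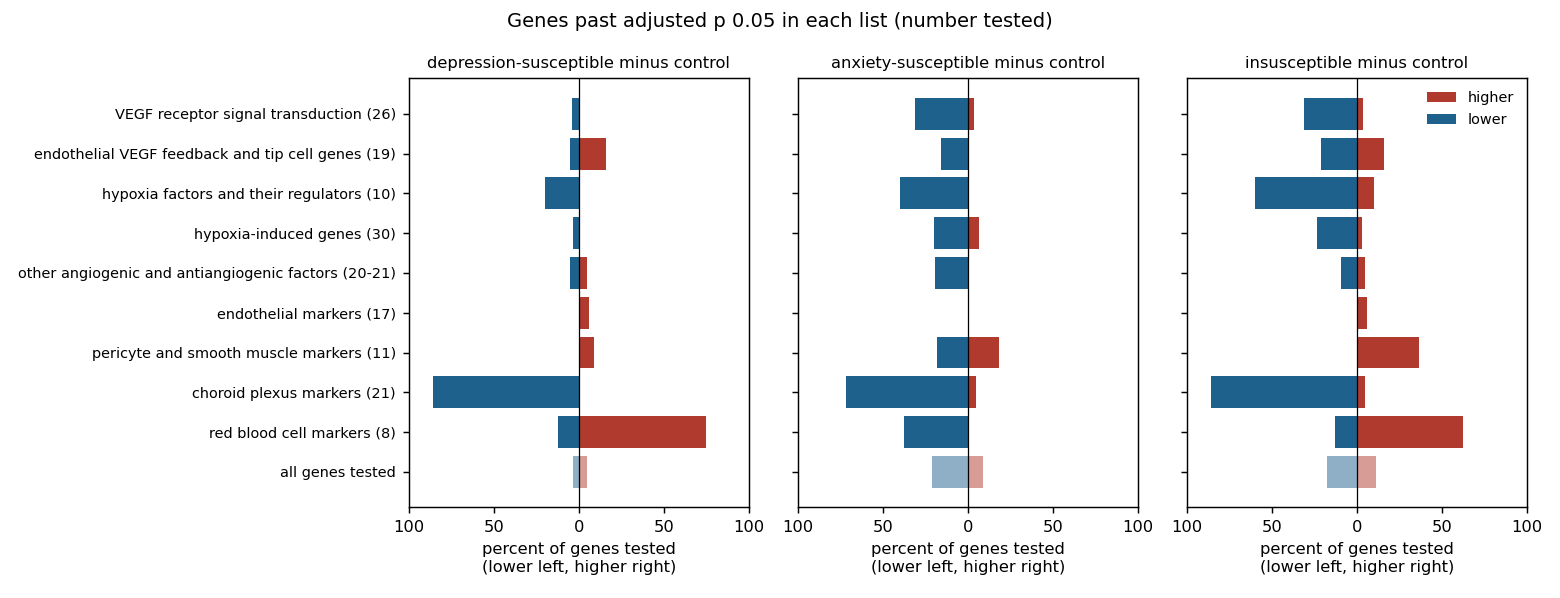
Share of the tested genes of each list past an adjusted p of 0.05 (horizontal axis, percent; lower to the left, higher to the right) in each stressed group against control, with the number tested in brackets and all genes tested at the bottom. Of the choroid plexus markers 18, 15 and 18 of 21 fell, while endothelial markers show at most 1 call of 17 in a group.

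Cell type markers were set beside the VEGF genes, since in bulk tissue fewer cells of a type and less RNA per cell cannot be told apart. Of 17 endothelial markers 1 rose and 0 fell in depression-susceptible, limma called 0 in anxiety-susceptible (5 at an unadjusted p under 0.05, 1 higher and 9 lower with all 16 arrays as samples) and 1 rose and 0 fell in insusceptible hippocampus, with mean levels of -0.71 to -0.48, -0.82 to -0.74, -0.71 to -0.60 and, in controls, -0.64 to -0.52. Sox18 rose by 0.47 in depression-susceptible (SE 0.08, adjusted p = 0.0426) and Pecam1 by 0.46 in insusceptible hippocampus (SE 0.10, adjusted p = 0.0369). The Sox18 call was lost after the correction from negative control spots (0.0558) and the Pecam1 call under quantile normalization (0.195). Another background correction (normexp on all spots), whose fit failed on some arrays, called 0 probes in both comparisons. In repeats that left out 1 array or 1 slide sample, the Sox18 call was kept in 11 and lost in 9. The Pecam1 call was kept in 14 and lost in 6. Of 11 pericyte and smooth muscle markers 1 rose and 0 fell, 2 rose and 2 fell, and 4 rose and 0 fell in depression-susceptible, anxiety-susceptible and insusceptible hippocampus in turn. Cnn1, a smooth muscle contractile protein, rose by 0.61 in depression-susceptible (SE 0.07, adjusted p = 0.023) and by 1.11 in insusceptible hippocampus (SE 0.09, adjusted p = 0.00974). In anxiety-susceptible hippocampus it fell by 0.46 (SE 0.09, adjusted p = 0.0337), a difference whose sign turned after the correction from negative control spots (0.18).

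Most choroid plexus markers fell. Of 21 tested, 0 rose and 18 fell in depression-susceptible, 1 rose and 15 fell in anxiety-susceptible and 1 rose and 18 fell in insusceptible hippocampus. Their mean level was -2.46 to -2.35 on depression-susceptible, -1.0 to -0.96 on anxiety-susceptible, -2.76 to -2.61 on insusceptible and 0.34 to 0.43 on control arrays. Of 8 red blood cell markers 6 rose and 1 fell in depression-susceptible, 0 rose and 3 fell in anxiety-susceptible and 5 rose and 1 fell in insusceptible hippocampus, and after the correction from negative control spots 4 were called higher and 2 lower in anxiety-susceptible hippocampus. Their mean level was -2.64 to -2.41 on depression-susceptible, -5.29 to -5.16 on anxiety-susceptible, -4.32 to -4.19 on insusceptible and -4.96 to -4.88 on control arrays, and Slc4a1 was not well above background on any array. Neuron markers fell for 3, 5 and 3 of 14 and rose for 0, 0 and 1, and microglia markers fell for 3, 5 and 4 of 14, beside 3.55%, 21.1% and 17.6% of all genes. Of 10 astrocyte markers limma called 0 in depression-susceptible and 0 in anxiety-susceptible hippocampus (2 and 1 at an unadjusted p under 0.05, 6 and 5 with all 16 arrays as samples), and in insusceptible hippocampus 1 rose and 1 fell. The part of these tissues in the VEGF results was not tested.

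The genes whose profile over the 6 samples lay closest to each VEGF gene, after centring each gene, were found among 11208 others by root mean square distance. Closest to Vegfa were Elovl6 (0.057), Arl13b (0.066) and Zfp668 (0.069), against a spread of 0.34 (SD) of Vegfa itself. Closest to Nrp1 were Arf1 (0.045), Snurf (0.051) and Etfa (0.053), against 0.42. Vegfb lay closest to Ctdspl2, Eif1ad and Gabrq, at 0.48, 0.60 and 0.72, against its own larger spread of 1.32. Closest to Vegfc were Hebp1, Orc3 and Kpna6 (0.022 to 0.029) and to Flt1 Bola1, Has1 and Ssb (0.028 to 0.036), both nearly flat profiles with a spread of 0.067 and 0.12. The 6 samples share slides and days, so such likeness also holds for genes that follow the slide.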

How the data were processed

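Hippocampal RNA of 16 samples was read on single-colour arrays. Spot intensity was deposited as Agilent Feature Extraction 11.0.1.1 wrote it, per the file headers, with background already subtracted and no step between arrays. A value table of the authors, deposited on a log2 scale by software not given in the sources used here, was an alternative. Control spots and outlier spots were left out, spots of a probe were averaged, and each array's log2 signal was lowered by its 75th percentile. Probes well above background on at least 4 of 16 arrays were tested with limma 3.58.1 in R 4.3.3 on 6 averaged samples with 4 group means, over all probes. Symbols came from RefSeq identifiers, and 14274 of 15323 messenger RNA probes matched. The number of arrays limits the precision. The limma fit for depression-susceptible against control was tested on simulated averaged values with planted differences. That test did not cover the scaling, the background correction or the other comparisons.

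The genes and lists were chosen with earlier results of these data known. Named are all VEGF family genes, up to 4 called genes of largest difference per list and comparison, of which the text prints some, and 3 nearest profiles per gene. Correlations between same-numbered arrays ran from -0.66 to 0.18 (24 pairs). The lowest were between depression-susceptible and control, whose same-numbered arrays lie on different slides. Pairing and slide cannot be told apart there, so pairing was not settled. Normexp used median signals, since no mean signal was given. Its fit failed on control replicate 3 and insusceptible replicate 2 (background means of -1800.45 and -661.91). On depression-susceptible replicate 1 the fitted log background SD was -9.1, far below that of the other arrays. A correction from 153 negative control spots per array was then added, chosen after seeing the data. Other alternatives were quantile normalization, other filters and scalings, slide as a block, and leaving out arrays or slides. One gene of a list is not reported here.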

Additional observations from a re-analysis of the deposited data

Results flagged for a closer look

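Flt1 on insusceptible replicate 2 stood at -4.59, apart from the other 3 insusceptible arrays, the nearest of which was at -4.30. The gap was 0.85 of the group's range, above Dixon's critical value for 4 arrays. In all 20 groups of 4 arrays were tested and 1 was picked out, where chance gives about 1 in 20.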

How the results depend on the processing

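The arrays are few and the spread between slides rests on 2 residual degrees of freedom, which limits every adjusted p. Group, slide and day cannot be told apart except between depression-susceptible and control. Dim probes such as those of Flt4, Flt1 and, on insusceptible arrays, Vegfb depend on the background correction.

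With all 16 arrays as samples, Vegfc (0.17) and Flt1 (0.27) in insusceptible and Nrp1 (-0.37) in depression-susceptible hippocampus passed against control. Probes past the threshold then numbered 8893, 12861 and 13035 for depression-susceptible, anxiety-susceptible and insusceptible against control, 11043 and 6547 for depression-susceptible and anxiety-susceptible against insusceptible, and 11222 for depression-susceptible against anxiety-susceptible. In that order, slide as a random block gave 10206, 10350, 10409, 7322, 2008 and 7846 probes, with Vegfc in insusceptible (0.17) and Nrp1 in depression-susceptible hippocampus (-0.37) past the threshold. The same-numbered arrays are not known to be paired, and a replicate block on 16 arrays gave 8364, 12524, 12681, 10544, 5757 and 10747 probes and the calls of Vegfc (0.17), Flt1 (0.27) and Nrp1 (-0.37) named for all 16 arrays. Slide as a block on the averaged samples gave 6677 probes in depression-susceptible against control and called Nrp1 (-0.37). Within slide 1, Flt1 in depression-susceptible minus control was 0.059.

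Without the filter, fewer probes passed against control in depression-susceptible (969) and anxiety-susceptible (2342), and Vegfa (0.77 and 0.62) and, in anxiety-susceptible, Vegfb (-0.82) lost their calls. In insusceptible against control more probes passed, 7828 without the filter against 5373 with it. The comparisons of depression-susceptible and anxiety-susceptible with insusceptible gave 3970 and, with limma, 0 (3147 at an unadjusted p under 0.05), and depression-susceptible against anxiety-susceptible gave 6. With only probes detected on all arrays these were 8, 33 and 1328, under quantile normalization 885, 64 and 1854, and 398, 48 and 1483 in the deposited values. The cause was not tested.

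The planned normexp correction, whose fit failed on some arrays, gave 0 probes in each of 6 comparisons with limma (476 to 867 at an unadjusted p under 0.05 against control). Against control Vegfa was then 0.88, 0.66 and 0.54, Vegfb -0.78 in anxiety-susceptible and -1.43 in insusceptible, and Nrp1 -1.03 and -0.75. Signs turned for Vegfa in anxiety-susceptible minus insusceptible (0.11), for Vegfc (-0.11) and Flt1 (-0.16) in anxiety-susceptible, for Pgf (0.042), Flt4 (0.51) and Epas1 (0.10) in insusceptible, and for Timp2 (-0.045) and Cnn1 (-0.25) in depression-susceptible against control. The correction from negative control spots gave 9411 and 9122 probes in anxiety-susceptible and insusceptible against control, and 5990 and 6430 for depression-susceptible against insusceptible and against anxiety-susceptible. It called Flt1 in anxiety-susceptible (0.49) and insusceptible (0.59), and turned Vegfc in depression-susceptible (0.015), Flt4 in anxiety-susceptible (0.66) and insusceptible (0.61), Pgf (0.13), Angpt1 (0.045), Cnn1 (0.18) and Hbb-bs (0.090) in anxiety-susceptible against control, and Vegfa in anxiety-susceptible minus insusceptible (0.013).

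Small differences changed sign with the scaling. Vegfa in depression-susceptible minus insusceptible, anxiety-susceptible minus insusceptible and depression-susceptible minus anxiety-susceptible was -0.057, 0.0036 and -0.061 under quantile normalization and -0.056, 0.0034 and -0.060 in the deposited table; the first and last were -0.0022 and -0.0014 when scaled on detected probes. Quantile normalization turned Vegfc in anxiety-susceptible (-0.073) and insusceptible (-0.038) and Flt1 in anxiety-susceptible (-0.27) and insusceptible (-0.12) against control, and Flt1 in depression-susceptible minus anxiety-susceptible (0.13). The deposited table gave -0.028 for Vegfc in anxiety-susceptible, -0.24 and -0.081 for Flt1 in anxiety-susceptible and insusceptible against control and 0.086 for Flt1 in depression-susceptible minus anxiety-susceptible. Scaling on detected probes gave 0.059 for Vegfc and 0.072 for Flt1 in depression-susceptible, 0.12 for Pgf in anxiety-susceptible and a called 0.38 for Vegfc in insusceptible against control.

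Leaving out 1 array or 1 slide sample at a time, Vegfa ran from 0.69 to 0.86, 0.54 to 0.71 and 0.54 to 0.72 in depression-susceptible, anxiety-susceptible and insusceptible against control, Vegfb from -0.92 to -0.73 in anxiety-susceptible and Nrp1 from -1.21 to -1.07 and -0.90 to -0.77 in anxiety-susceptible and insusceptible. Vegfc ran from -0.038 to 0.012 and Flt1 from -0.11 to 0.11 in depression-susceptible, Flt1 from -0.089 to 0.13 in anxiety-susceptible and Flt4 from -0.64 to 0.054 in depression-susceptible against control. Flt1 in depression-susceptible minus anxiety-susceptible ran from -0.070 to 0.030 and Vegfa in anxiety-susceptible minus insusceptible from -0.023 to 0.021. Probes past the threshold ran from 381 to 1715, 1492 to 5620 and 1606 to 5522 against control, from 0 to 16 for both comparisons with insusceptible, and from 0 to 50 for depression-susceptible against anxiety-susceptible. Of 600 such repeats over the 5 genes and 6 comparisons, 549 kept direction and side of the threshold, 34 lost a call and 17 turned a sign. The losses against control, and the 4 of Vegfb in depression-susceptible against insusceptible, came with a slide sample left out, when 1 residual degree of freedom remains. The other 11 were of Vegfb in anxiety-susceptible against insusceptible, 7 of them with a single array left out. Calls of list genes against control were lost in such repeats too. In depression-susceptible hippocampus Timp2 and Epas1 lost theirs in 6 repeats each, Angpt2 and Ddit4 in 4 each, and Esm1 and Mmp2 in 0.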
